A study of Mus musculus with 4 samples.

Results

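Secreted Wnt antagonists are extracellular proteins that lower Wnt signalling outside the cell. The family was taken as 8 named genes, Frzb, Sfrp1, Sfrp2, Sfrp4, Sfrp5, Dkk2, Dkk3 and Wif1, among the 55141 genes with a deposited level. All 8 were found by symbol, 7 had at least 1 read in 1 of the 4 libraries, and 4 (Frzb, Dkk3, Wif1 and Sfrp2) had enough reads to be compared between conditions.

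Articular chondrocytes were released with collagenase from the femoral heads of C57BL/6 mice at 3 weeks of age and grown in medium with 10% fetal bovine serum. There was 1 library of each of 4 kinds. The first was labelled wild type. The second came from Cart-miR-23clus KO mice (Col2a1-cre with miR-23a/b clusters flox/flox), in which the clusters encoding miR-23, miR-27 and miR-24 are removed in cells that have expressed Cre from the Col2a1 promoter. The third came from miR-26a -/- mice (miR-26a KO), and the fourth from miR-26a -/- chondrocytes transfected with a double-stranded miR-26a mimic (strain given as C57BL6/J). The methods of the study name floxed mice without Cre as Control, so the exact genotype behind the wild-type label is not certain. The labels also mention a negative control siRNA, without saying whether the miR-26a KO library received it. How many mice gave each library is not given in the sources used here. The study paired sequencing of the wild-type and Cart-miR-23clus KO chondrocytes with proteomics to look for genes raised by loss of the clusters. It also examined lowered genes, which it linked to ossification.

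Wnt proteins are lipid-modified ligands that bind Frizzled receptors and the co-receptors Lrp5 and Lrp6, and in the canonical branch this spares β-catenin from degradation so that it can act with Tcf/Lef factors on target genes. Frzb (also called Sfrp3) and the Sfrp proteins carry a Frizzled-like cysteine-rich domain and bind Wnt ligands, as does Wif1 through its own WIF domain. Dkk2 binds Lrp5 and Lrp6, whereas Dkk3 is a divergent relative that is not a classical Lrp antagonist. In joints, Frzb is known as a cartilage gene whose loss in mice has been linked to more cartilage damage in experimental arthritis.

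The miRNAs behind the 3 altered conditions are shown here because their seeds (bases 2 to 8, in capitals) define the matches sought in the members. The mature sequences are from RefSeq (GRCm38.p6). The seed of miR-27a-3p and miR-27b-3p is the same, and miR-24-3p is made by 1 gene of each cluster with the same sequence. The miR-23a gene lies on chromosome 8, miR-27b on chromosome 13 and the miR-26a genes on chromosomes 9 and 10. The sense strand of the transfected mimic was identical to miR-26a-5p over its 22 bases. miR-23b-3p is named only.
miR-23a-3p: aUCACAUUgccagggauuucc
miR-27a-3p: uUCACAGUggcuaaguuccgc
miR-27b-3p: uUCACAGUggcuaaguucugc
miR-24-3p: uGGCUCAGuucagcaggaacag
miR-26a-5p: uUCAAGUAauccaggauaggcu

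The annotated 3′ UTRs of Frzb, Sfrp2, Sfrp4, Dkk3 and Wif1 held 0 matches to any of these seeds on the transcript strand. The matches sought were AATGTGA for miR-23, ACTGTGA for miR-27, CTGAGCC for miR-24 and TACTTGA for miR-26a. The UTR of Frzb was 1392 bases long, that of Dkk3 2194, that of Sfrp2 894 and that of Wif1 771, against a median of 1260 bases over 10339 genes. Among those genes, 17.4% held the miR-23 match, 18.0% the miR-27 match, 19.7% the miR-24 match and 12.3% the miR-26a match, and 42.0% held at least 1 of the first 3. Among the other UTRs reported here, matches to the cluster miRNAs were present in Sfrp5 (1 for miR-23) and Dkk2 (1 for miR-27), which had few or no reads. A match of 7 letters is a description of the sequence, and its absence says only that these letters are not in this annotated UTR. The matches in Sfrp5 and Dkk2 are printed with 10 bases on each side, from GENCODE transcripts on GRCm38, with the match in capitals. They lie at chr19:42198381-42198407 on the minus strand and chr3:132178139-132178165 on the plus strand.
Sfrp5, miR-23 match: agaggaggaaAATGTGAaggactacgg
Dkk2, miR-27 match: tcactagcagACTGTGAatttgtgtat

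The libraries held 1498579 reads on listed genes in wild-type chondrocytes, 1328042 in Cart-miR-23clus KO chondrocytes, 1362870 in miR-26a KO chondrocytes and 1449246 in the mimic-transfected library. The authors made levels in TPM, in which the reads of a gene are divided by its length and scaled to a fixed sum. The reads came from the 3′ ends of mRNAs, so the division by length weights genes against each other but cancels in the ratio of 1 gene between libraries. Each ratio given here is of TPM, and the 95% interval beside it is an exact Clopper-Pearson interval on the reads of the gene with the library totals as reference. These intervals cover counting error only, and reads copied by PCR are not independent molecules. With 1 library per condition, differences lack a replicate check and p-values are not given. Genes with at least 20 reads in the 2 libraries together were compared. Of these, a gene is counted as above 2 or below 0.5 by its TPM ratio. The targeted miRNAs are not measured in mRNA libraries, so the knockout labels could not be checked. Cells and RNA per cell cannot be told apart in such bulk libraries: a lower level can come from fewer cells of a type or from less RNA in each.

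The label of articular chondrocytes was compared with marker genes. All 16 chondrocyte markers were detected in every library, led by Col2a1, the type II collagen of cartilage, at 7062 TPM in wild-type chondrocytes, 5452 in Cart-miR-23clus KO chondrocytes, 5565 in miR-26a KO chondrocytes and 5664 in the mimic-transfected library. Genes of other cells were present as well. Col1a1, the type I collagen of bone and fibrous tissue, was at 6328, 1311, 2690 and 3194 TPM in the same order, and the summed level of 12 osteoblast markers was 13019, 3919, 6872 and 7747 TPM, with Mepe at 0 throughout. The sum of 15 macrophage and osteoclast markers was 1252, 1611, 579 and 1014 TPM. The sum of 6 markers of superficial-zone chondrocytes and synovial lining was 86.5, 175, 388 and 362 TPM, led by Prg4 (lubricin) at 65.3, 141, 219 and 253 TPM. Of the same list, Thbs4 was at 7.18, 12.5, 143 and 89.4 TPM. Erg went the other way, with 8, 3, 3 and 2 reads, and Gdf5 and Clic5 had at most 2 reads in a library. The sum of 10 fibroblast markers ranged from 1575 to 2573 TPM (Pi16 at 0) and of 6 hypertrophic chondrocyte markers from 671 to 1800 TPM. That of 7 adipocyte markers ranged from 130 to 492 TPM (Cidec at 0) and of 6 smooth muscle and pericyte markers from 158 to 342 TPM (Myh11 and Rgs5 at 0). The 14 cell cycle genes summed to 158 TPM in wild-type chondrocytes, 280 in Cart-miR-23clus KO chondrocytes, 302 in miR-26a KO chondrocytes and 308 in the mimic-transfected library. The 7 endothelial markers summed to at most 2.15 TPM with Cdh5, Tek and Cldn5 at 0, the 6 skeletal muscle markers to at most 10.3 TPM with Myh4, Myh1 and Ckm at 0, and the 5 erythroid genes found were at 0. Marker levels thus differed between the libraries in every comparison of the members.

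Frzb was the most abundant member over the 4 libraries and was highest in wild-type chondrocytes. It lies on chromosome 2 (80411970 to 80447625, minus strand, GRCm38) with 6 exons. It had 883 reads in wild-type chondrocytes, 504 in Cart-miR-23clus KO chondrocytes, 422 in miR-26a KO chondrocytes and 500 in the mimic-transfected library, or 268 TPM (95% interval 251 to 287), 169 TPM (154 to 184), 141 TPM (128 to 155) and 156 TPM (143 to 170). The wild-type interval lay above those of all 3 altered libraries, which overlapped one another, by a narrow margin between the Cart-miR-23clus KO library and that of miR-26a KO.

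Dkk3 (chromosome 7, 112116017 to 112159057, minus strand, 8 exons) varied least among the 4 compared members. Its reads numbered 488 in wild-type chondrocytes, 383 in Cart-miR-23clus KO chondrocytes, 527 in miR-26a KO chondrocytes and 490 in the mimic-transfected library. These gave 139 TPM (127 to 152), 120 TPM (108 to 133), 165 TPM (151 to 180) and 143 TPM (131 to 157), so that the highest library was 1.37 times the lowest. Cart-miR-23clus KO was the lowest library and miR-26a KO the highest.

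Wif1 (chromosome 10, 121033960 to 121100650, plus strand, 10 exons) split the libraries by the miR-26a genotype. It had 170 reads in wild-type chondrocytes and 166 in Cart-miR-23clus KO chondrocytes, against 316 in miR-26a KO chondrocytes and 337 in the mimic-transfected library. The levels were 70.9 TPM (60.7 to 82.4) and 76.3 TPM (65.1 to 88.8) in the first pair, and 145 TPM (129 to 162) and 144 TPM (129 to 161) in the second. The pairs did not overlap by these intervals.

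Sfrp2 (chromosome 3, 83766321 to 83774316, plus strand, 3 exons) was an order of magnitude lower than Frzb in wild-type chondrocytes. Its reads numbered 55 in wild-type chondrocytes, 65 in Cart-miR-23clus KO chondrocytes, 28 in miR-26a KO chondrocytes and 37 in the mimic-transfected library, or 26.3 TPM (19.8 to 34.2), 34.2 TPM (26.4 to 43.6), 14.7 TPM (9.76 to 21.2) and 18.1 TPM (12.8 to 25.0). It was low in both miR-26a KO libraries, and the intervals of libraries next to each other in order of level overlapped. An antisense gene, Gm26771, overlaps its exons and had at most 1 read in any library. The counting is not stated to use strand.

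**Figure D1:**
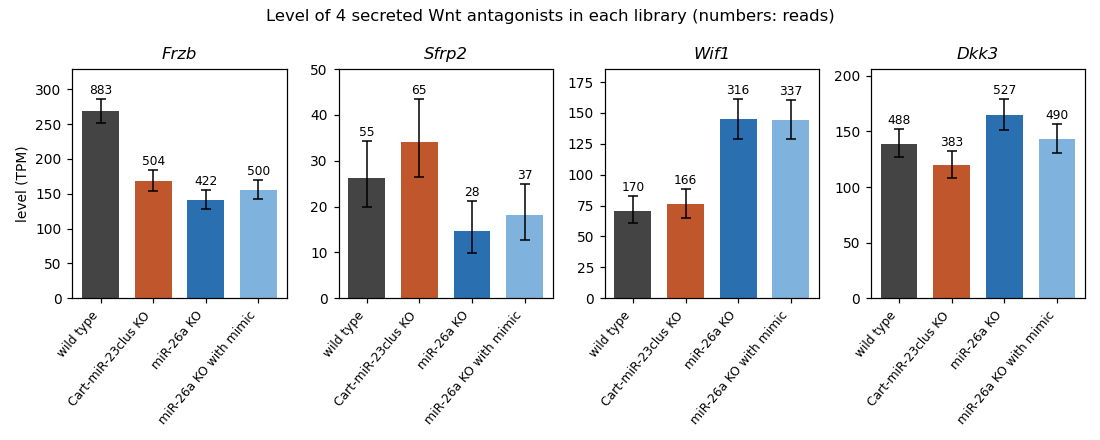
Level in TPM (vertical axes, each from 0) of Frzb, Sfrp2, Wif1 and Dkk3 in the 4 libraries, with bars for the level, error bars for the exact 95% Poisson interval of the reads (counting error only) and the number of reads above each bar. Frzb was highest in wild-type chondrocytes at 268 TPM, and Wif1 was at 145 and 144 TPM in the miR-26a KO libraries against 70.9 and 76.3 TPM in the others.

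The other 4 members were at the limit of detection. Sfrp4, on chromosome 13, had 6 reads in wild-type chondrocytes, 7 in Cart-miR-23clus KO chondrocytes, 1 in miR-26a KO chondrocytes and 2 in the mimic-transfected library. Sfrp5, on chromosome 19, had 5, 1, 0 and 4 reads in the same order. Sfrp1, on chromosome 8, had 2 reads in Cart-miR-23clus KO chondrocytes and 0 elsewhere. Dkk2, on chromosome 3, had 0 reads in every library, which at a limit of 3 reads allows at most 0.000200% of all reads in wild-type chondrocytes and 0.000226% in Cart-miR-23clus KO chondrocytes. The interval of the Sfrp5 ratio in miR-26a KO against wild type, from 0 to 1.20, included 1. No difference of these 4 members was detectable at this depth.

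By level per length, the order in wild-type chondrocytes was Frzb, Dkk3, Wif1 and Sfrp2, and no neighbouring intervals overlapped. The order and the separation were the same in Cart-miR-23clus KO chondrocytes. In miR-26a KO the order was Dkk3, Wif1, Frzb and Sfrp2, and in the mimic-transfected library Frzb, Wif1, Dkk3 and Sfrp2. In both of these libraries the intervals of neighbours among the first 3 overlapped. The ratio of Frzb to Dkk3 within the miR-26a KO library was 0.854 (0.750 to 0.973), so Dkk3 stood above Frzb there by more than counting error. The place of Wif1 by level per length was not resolved in that library. In the mimic-transfected library the intervals of all 3 pair ratios included 1. The place of Wif1 in these orders rests on the division by length, whereas Dkk3 also had more reads than Frzb in miR-26a KO. By reads alone Wif1 was the third member in both libraries, with 316 reads against 422 of Frzb and 527 of Dkk3 in miR-26a KO, and 337 against 500 and 490 in the mimic-transfected library.

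The comparison of Cart-miR-23clus KO with wild-type chondrocytes asks how the antagonists stood after loss of the miR-23a/b clusters. Frzb was lower, at a TPM ratio of 0.628 (interval 0.576 to 0.719). Sfrp2 was at 1.30 (0.917 to 1.95), Wif1 at 1.08 (0.884 to 1.37) and Dkk3 at 0.864 (0.773 to 1.01), and these 3 intervals included 1. The interval of Dkk3 excluded 1 when TPM, edgeR's TMM or DESeq2's size factors set the scale in place of the library totals. No member was past 2-fold. Over the 9573 genes compared, 4.73% were above 2 and 4.38% below 0.5, 13.1% had an interval above 1 and 10.7% an interval below 1. Of the 4 members compared, 0 had an interval above 1 and 1 below. Frzb had the 970th lowest ratio of all genes compared. Beside it, the summed chondrocyte markers were 18036 TPM in wild-type chondrocytes and 12339 TPM in Cart-miR-23clus KO chondrocytes. Of these 16 markers, 8 had an interval below 1 and 3 above, the latter Comp at 1.70 (1.54 to 1.97), Matn3 at 1.38 (1.10 to 1.82) and Col9a2 at 1.32 (1.20 to 1.51), and their median log2 ratio was -0.15. In the same order of libraries, the osteoblast markers summed to 13019 and 3919 TPM and the adipocyte markers to 164 and 492 TPM. The hypertrophic chondrocyte markers summed to 1737 and 671 TPM. Of these 6, 5 had an interval below 1 and 1 above, Col10a1 at 1.55 (1.23 to 2.06). The cell cycle genes summed to 158 and 280 TPM, and 9 of the 13 compared had an interval above 1 and 0 below. The part of cell make-up in the Frzb difference was not tested.

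In miR-26a KO against wild type, all 4 members had an interval that excluded 1, with 2 higher and 2 lower. Wif1 was higher, at 2.04 (1.69 to 2.48), and Dkk3 at 1.19 (1.05 to 1.35). Frzb was lower, at 0.525 (0.467 to 0.591), and Sfrp2 at 0.559 (0.342 to 0.898). Only Wif1 was past 2-fold among these 4, and by a narrow margin, since its ratio was 1.99 with TMM scaling. The background over 9545 genes was 3.88% above 2, 3.50% below 0.5, 11.2% with an interval above 1 and 8.55% with an interval below 1. Wif1 had the 349th highest ratio of these genes, Frzb the 398th lowest and Sfrp2 the 499th lowest. The interval of Sfrp2 included 1 at a level of 99%. In every comparison, the shares of all genes with an interval above or below 1 were not matched to the reads of the members. An interval excludes 1 more readily the more reads a gene has. Beside these values, the superficial-zone and synovial markers summed to 388 TPM in miR-26a KO and 86.5 TPM in wild-type chondrocytes. In the same order, the chondrocyte markers summed to 12877 and 18036 TPM, the osteoblast markers to 6872 and 13019 TPM and the macrophage and osteoclast markers to 579 and 1252 TPM. Of 12 macrophage and osteoclast markers compared, 11 had an interval below 1 and 1 above. Ctsk went against this sum, at 168 against 121 TPM. The cell cycle genes summed to 302 and 158 TPM (8 of 13 compared with an interval above 1, 0 below). The fibroblast markers summed to 2573 and 2088 TPM (5 of 8 above, 0 below). The part of these markers in the antagonist differences was not tested.

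The mimic-transfected library against miR-26a KO shows the members after miR-26a was supplied. Wif1 was at 0.996 (0.858 to 1.17), Frzb at 1.11 (0.977 to 1.27) and Sfrp2 at 1.23 (0.740 to 2.11), all with intervals that included 1. Dkk3 was slightly lower, at 0.869 (0.772 to 0.991), and its interval included 1 at a level of 99% and with TMM scaling. No member was past 2-fold, among 9471 genes of which 1.89% were above 2 and 1.46% below 0.5, and of which 5.45% had an interval above 1 and 4.77% below. Marker sums also differed between these libraries, with the macrophage and osteoclast markers at 1014 TPM in the mimic-transfected library against 579 in miR-26a KO (8 of 10 compared with an interval above 1), the hypertrophic chondrocyte markers at 1800 against 1506 (4 of 5) and the osteoblast markers at 7747 against 6872 TPM (4 of 8). Their part was not tested. The interval of Wif1 leaves room for a level in the mimic-transfected library up to 1.17 times that in miR-26a KO, or down to 0.858 times. Against wild type, Wif1 was at 2.03 (1.70 to 2.48) and Frzb at 0.581 (0.524 to 0.654) in the mimic-transfected library, while the intervals of Sfrp2, at 0.690 (0.446 to 1.07), and Dkk3, at 1.03 (0.914 to 1.18), included 1. The mimic-to-wild-type and miR-26a KO-to-wild-type comparisons share the wild-type library.

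The Cart-miR-23clus KO library was also compared directly with that of miR-26a KO, without the wild-type library. Sfrp2 was higher in Cart-miR-23clus KO chondrocytes, at 2.33 (1.51 to 3.85), and so was Frzb, at 1.20 (1.07 to 1.40). Wif1 was lower, at 0.527 (0.444 to 0.653), and so was Dkk3, at 0.729 (0.652 to 0.852). Of 9453 genes, 3.99% were above 2 and 3.43% below 0.5, and 9.39% had an interval above 1 and 9.24% below 1. Sfrp2 was the member past 2-fold, with the 233rd highest ratio, and Wif1 had the 417th lowest. Marker sums differed between the same libraries. The macrophage and osteoclast markers were at 1611 against 579 TPM and the superficial-zone and synovial markers at 175 against 388. The adipocyte markers were at 492 against 130, the osteoblast markers at 3919 against 6872 and the hypertrophic chondrocyte markers at 671 against 1506 TPM. Of 8 osteoblast markers compared, 6 had an interval below 1 and 1 above, Spp1 at 2.39 (2.26 to 2.65). Of 5 hypertrophic markers compared, 4 were below and 1 above, Col10a1 at 1.81 (1.40 to 2.46). The part of these markers was not tested. Against the mimic-transfected library, which is another miR-26a KO library, Sfrp2 was at 1.88 (1.26 to 2.95), Wif1 at 0.529 (0.444 to 0.649) and Dkk3 at 0.839 (0.744 to 0.977) in Cart-miR-23clus KO chondrocytes, while the interval of Frzb, at 1.08 (0.970 to 1.25), included 1.

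**Figure D2:**
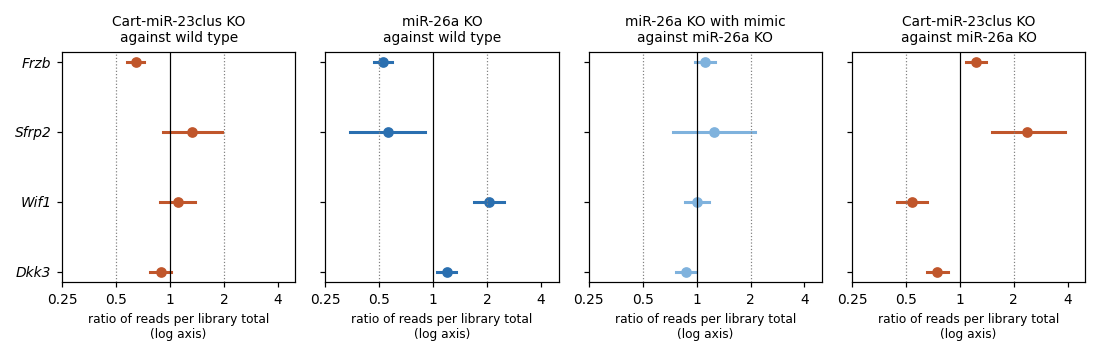
Ratio of the reads per library total (horizontal log axes) of the 4 members in the 4 comparisons, with points for the ratio and lines for the exact 95% interval (counting error only), a solid line at 1 and dotted lines at 0.5 and 2. The points are ratios of reads, which differ from the TPM ratios in the text by a factor between 0.976 and 0.999 per comparison. All 4 lines miss 1 in the second and the fourth panel (miR-26a KO against wild type, Cart-miR-23clus KO against miR-26a KO).

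**Figure D3:**
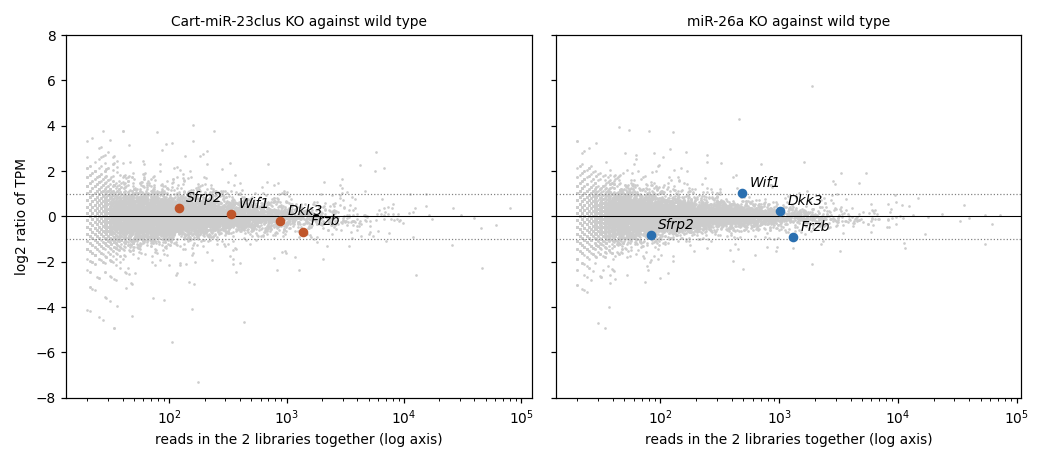
Log2 ratio of TPM (vertical axes) against the reads in the 2 libraries together (horizontal log axes) for all genes compared in Cart-miR-23clus KO against wild type (left) and miR-26a KO against wild type (right), in grey, with the 4 members marked and dotted lines at ratios of 0.5 and 2. Genes at 0 reads in 1 of the 2 libraries have no ratio and are not drawn. Frzb lies below 0 in both panels, at -0.67 and -0.93, while Wif1 lies at 0.10 in the first and 1.03 in the second.

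The make-up of the antagonist reads differed between the libraries. The 8 members together held 1607 reads in wild-type chondrocytes, 1128 in Cart-miR-23clus KO chondrocytes, 1294 in miR-26a KO chondrocytes and 1370 in the mimic-transfected library, or 0.107%, 0.0849%, 0.0949% and 0.0945% of all reads, and their summed levels were 509, 402, 466 and 464 TPM. Frzb made up 54.9% of these reads in wild-type chondrocytes (exact binomial interval 52.5 to 57.4), 44.7% in Cart-miR-23clus KO chondrocytes (41.8 to 47.6), 32.6% in miR-26a KO chondrocytes (30.1 to 35.2) and 36.5% in the mimic-transfected library (33.9 to 39.1). Wif1 made up 10.6% (9.12 to 12.2), 14.7% (12.7 to 16.9), 24.4% (22.1 to 26.9) and 24.6% (22.3 to 27.0) in the same order. Dkk3 made up between 30.4% in wild-type chondrocytes and 40.7% in miR-26a KO, and Sfrp2 between 2.16% in miR-26a KO and 5.76% in Cart-miR-23clus KO chondrocytes. Shares of a fixed sum move against each other, so the pairs of genes are also given directly.

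Within a library, depth cancels in the ratio of 1 member to another. The TPM ratio of Frzb to Wif1 was 3.78 in wild-type chondrocytes (3.21 to 4.49), 2.21 in Cart-miR-23clus KO chondrocytes (1.85 to 2.65), 0.973 in miR-26a KO chondrocytes (0.839 to 1.13) and 1.08 in the mimic-transfected library (0.940 to 1.24). Relative to wild type, this ratio was 0.585 times as high in Cart-miR-23clus KO chondrocytes (0.456 to 0.749, conditional interval on the 4 read counts) and 0.257 times as high in miR-26a KO (0.205 to 0.322). The ratio of Frzb to Dkk3 was 1.93 in wild-type chondrocytes (1.73 to 2.16), 1.40 in Cart-miR-23clus KO chondrocytes (1.23 to 1.61), 0.854 in miR-26a KO chondrocytes (0.750 to 0.973) and 1.09 in the mimic-transfected library (0.959 to 1.24). Between the mimic-transfected library and miR-26a KO, the Frzb-to-Wif1 ratio differed by a factor of 1.11 (0.904 to 1.37), an interval that included 1, and the Frzb-to-Dkk3 ratio by 1.27 (1.06 to 1.53).

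**Figure D4:**
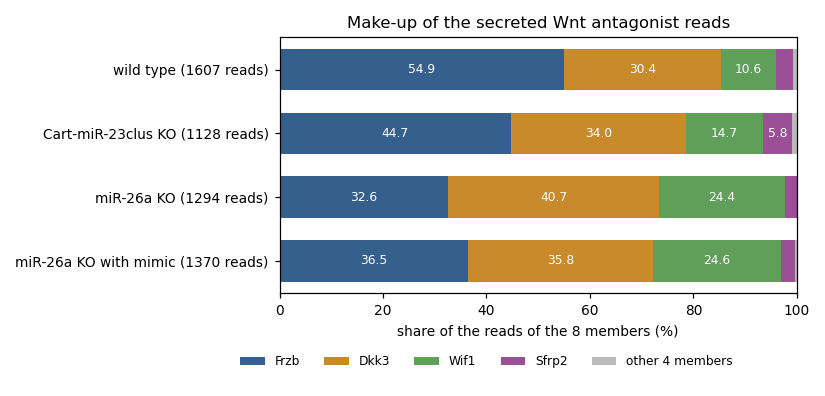
Share of the reads of the 8 members (horizontal axis, percent) taken by Frzb, Dkk3, Wif1, Sfrp2 and the other 4 members together in each library, with the number of reads beside the library name. Frzb takes 54.9% in wild-type chondrocytes and 32.6% in miR-26a KO, while Wif1 takes 10.6% and 24.4%.

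The antagonists were set beside the other genes of the pathway. Among 8 further secreted inhibitors, 0 had 20 reads in any pair of libraries. Dkk1, Dkk4, Sost and Cer1, which include the best known Lrp antagonists of bone, were at 0 in all 4 libraries. Notum, a deacylase that inactivates Wnt ligands, had at most 4 reads, and Draxin had 0, 2, 7 and 0 reads in wild-type chondrocytes, Cart-miR-23clus KO chondrocytes, miR-26a KO chondrocytes and the mimic-transfected library.

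Wnt ligands were scarce, with 10 of 19 at 0 in every library and a summed level of 23.0 TPM in wild-type chondrocytes, 9.47 in Cart-miR-23clus KO chondrocytes, 21.3 in miR-26a KO chondrocytes and 21.3 in the mimic-transfected library. The leading ligand was Wnt5a, a mainly non-canonical Wnt, with 66, 34, 45 and 53 reads in that order. Wnt5a was lower in Cart-miR-23clus KO chondrocytes than in wild-type chondrocytes, at 0.567 (0.373 to 0.892), where 10.7% of all genes had an interval below 1. The other ligand with enough reads was Wnt10b, a canonical Wnt of bone, at 0.0551 (0.00136 to 0.353) from 1 read against 20. Wnt10b passed the read filter only through the wild-type library, so its lower level is not counted beside that of Wnt5a. In miR-26a KO against wild type, where 11.2% of all genes were above and 8.55% below, neither interval excluded 1, and Wnt10b was at 0.494 (0.198 to 1.14). The mimic-transfected library against miR-26a KO gave 0 of 2 with an interval that excluded 1, and Cart-miR-23clus KO against miR-26a KO 0 of 1, beside 5.45% above and 4.77% below over all genes in the first and 9.39% and 9.24% in the second. Too few reads for the second comparison were held by Wnt10b (1 against 9) and Wnt5b (0 against 8), whose intervals lay below 1. Of the 5 ligands with a mean of at least 1 TPM, 5 were lower and 0 higher there, mostly from few reads.

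Receptors were detected more fully. Of 17 Frizzled receptors, co-receptors and related genes, 16 had reads, Kremen2 was at 0, and Ryk led with 240, 210, 250 and 225 TPM. In Cart-miR-23clus KO against wild type, 3 of 13 compared had an interval above 1 and 0 below, beside 13.1% above and 10.7% below over all genes. These were Fzd3 at 2.45 (1.09 to 6.25), from 20 reads against 9, Fzd9 at 1.55 (1.22 to 2.06) and the canonical co-receptor Lrp6 at 1.42 (1.11 to 1.92). In miR-26a KO against wild type 2 of 13 were above and 1 below, beside 11.2% and 8.55% over all genes, with Lrp6 at 1.63 (1.25 to 2.13), Fzd9 at 1.31 (1.002 to 1.72) and Fzd8 at 0.761 (0.606 to 0.955). Lrp6 had 97 reads in wild-type chondrocytes, 125 in Cart-miR-23clus KO chondrocytes, 144 in miR-26a KO chondrocytes and 134 in the mimic-transfected library. The mimic-transfected library against miR-26a KO gave 1 of 12 below (Fzd6, 0.389, 0.167 to 0.850), and Cart-miR-23clus KO against miR-26a KO 1 of 13 below (Ryk, 0.842, 0.764 to 0.973). Over all genes 4.77% and 9.24% were below in these comparisons, so both counts are near the background.

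R-spondins enhance Wnt signalling by sparing the receptors from removal, with Lgr4 to Lgr6 as their receptors. Rspo3 was the most abundant, at 347, 222, 282 and 254 TPM in wild-type chondrocytes, Cart-miR-23clus KO chondrocytes, miR-26a KO chondrocytes and the mimic-transfected library, and was lower than wild type in Cart-miR-23clus KO chondrocytes (0.641, 0.545 to 0.789) and in miR-26a KO (0.812, 0.684 to 0.965). Rspo2 had 13, 24, 32 and 20 reads, with ratios to wild type of 2.03 (1.02 to 4.46) and 2.70 (1.38 to 5.62). Lgr5 had 66 reads in wild-type chondrocytes and 56 in Cart-miR-23clus KO chondrocytes, against 8 in miR-26a KO chondrocytes and 13 in the mimic-transfected library. Its ratio was 0.133 (0.0553 to 0.278) in miR-26a KO against wild type and 7.02 (3.41 to 17.5) in Cart-miR-23clus KO against miR-26a KO. Lgr5 was thus low in both miR-26a KO libraries, in which Wif1 was high. Rspo4 and Rnf43 were at 0.

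Among 18 genes of Wnt secretion and the β-catenin pathway, 3 of 17 compared had an interval above 1 and 3 below in Cart-miR-23clus KO against wild type, and 1 of 18 above and 1 below in miR-26a KO against wild type. Over all genes compared, 13.1% were above and 10.7% below in the first comparison and 11.2% and 8.55% in the second, so that these counts are near or under the background and the genes named next describe single genes. Porcn, the acyltransferase that Wnt ligands need for secretion, had 52 reads in wild-type chondrocytes, 21 in Cart-miR-23clus KO chondrocytes, 39 in miR-26a KO chondrocytes and 57 in the mimic-transfected library, with a ratio of 0.445 (0.261 to 0.770) in Cart-miR-23clus KO against wild type. The β-catenin gene Ctnnb1 was at 0.726 (0.687 to 0.807) in Cart-miR-23clus KO chondrocytes and 0.809 (0.749 to 0.875) for miR-26a KO against wild type. It was at 1.11 (1.03 to 1.21) in the mimic-transfected library against miR-26a KO. Pygo2, a β-catenin co-activator, was at 0.641 (0.470 to 0.912) in Cart-miR-23clus KO against wild type and at 0.528 (0.388 to 0.745) against miR-26a KO, where Porcn was at 0.540 (0.309 to 0.963) and these were the 2 of 18 with an interval below 1, beside 9.24% of all genes. Tcf7l2, a DNA-binding partner of β-catenin, was at 1.53 (1.08 to 2.30) in Cart-miR-23clus KO chondrocytes and Bcl9l, another co-activator, at 1.43 (1.16 to 1.76) in miR-26a KO, both against wild type. In the mimic-transfected library against miR-26a KO, 2 of 18 had an interval above 1, Tcf7l1 at 1.28 (1.02 to 1.64) and Ctnnb1, beside 5.45% of all genes.

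Of 13 genes known as Wnt/β-catenin targets, 9 were compared with wild type in each knockout. In Cart-miR-23clus KO, 3 had an interval below 1 and 1 above, Tnfrsf11b (osteoprotegerin) at 1.57 (1.31 to 1.98), where 10.7% of all genes were below and 13.1% above. Those below were Ccnd1 (cyclin D1) at 0.464 (0.429 to 0.527), Ccn4 at 0.270 (0.210 to 0.362) and Tcf7 at 0.163 (0.0425 to 0.480), all 3 under 0.5, as were 4.38% of all genes. Ccnd1 had 1276 reads in wild-type chondrocytes, 538 in Cart-miR-23clus KO chondrocytes, 1139 in miR-26a KO chondrocytes and 1305 in the mimic-transfected library, so that the low level was in Cart-miR-23clus KO alone of the 4 libraries. In miR-26a KO, 3 were below and 2 above, where 8.55% and 11.2% of all genes were. Tcf7 was at 0.163 (0.0414 to 0.468), Myc at 0.329 (0.108 to 0.852) and Ccn4 at 0.528 (0.427 to 0.651), while Ccn5 was at 2.13 (1.68 to 2.71) and Tnfrsf11b at 2.09 (1.73 to 2.55). Tcf7 and Myc, with 27 and 20 reads in wild-type chondrocytes against 4 and 6 in miR-26a KO, passed the read filter through the wild-type library. Tcf7 did so in Cart-miR-23clus KO as well, with 4 reads. Axin2, a general target of the canonical branch, had 5, 1, 0 and 1 reads and could not be compared, and Sp5 was at 0.

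The median log2 ratio of the targets with a mean of at least 1 TPM, with 0.5 TPM added, was -0.38 over 10 genes in Cart-miR-23clus KO against wild type and -0.26 for miR-26a KO against wild type, where the medians of all 13191 such genes were 0 and 0.03. In each of these comparisons 4 of the 10 targets were higher and 6 lower, and with a mean of at least 5 TPM the medians were -0.21 and -0.03, the latter near that of all genes. Many of these targets have other inputs. The summed osteoblast markers were lower than wild type in the same libraries, as given above, and 7 of the 9 compared had an interval below 1 in Cart-miR-23clus KO and 8 of 9 in miR-26a KO, where 10.7% and 8.55% of all genes did. Spp1 (osteopontin) was higher in Cart-miR-23clus KO, at 2.09 (1.99 to 2.30), and the interval of Runx2 included 1 in both, at 0.773 (0.492 to 1.26) and 1.05 (0.684 to 1.62). The part of these markers was not tested. In the mimic-transfected library against miR-26a KO, 0 of 7 targets had an interval that excluded 1, where 5.45% of all genes were above and 4.77% below. In Cart-miR-23clus KO against miR-26a KO, 4 of 7 were below 1 and 0 above, beside 9.24% and 9.39% of all genes, among them Ccnd1 at 0.474 (0.437 to 0.538), Ccn4 at 0.512 (0.387 to 0.706) and Ccn5 at 0.556 (0.450 to 0.718).

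**Figure D5:**
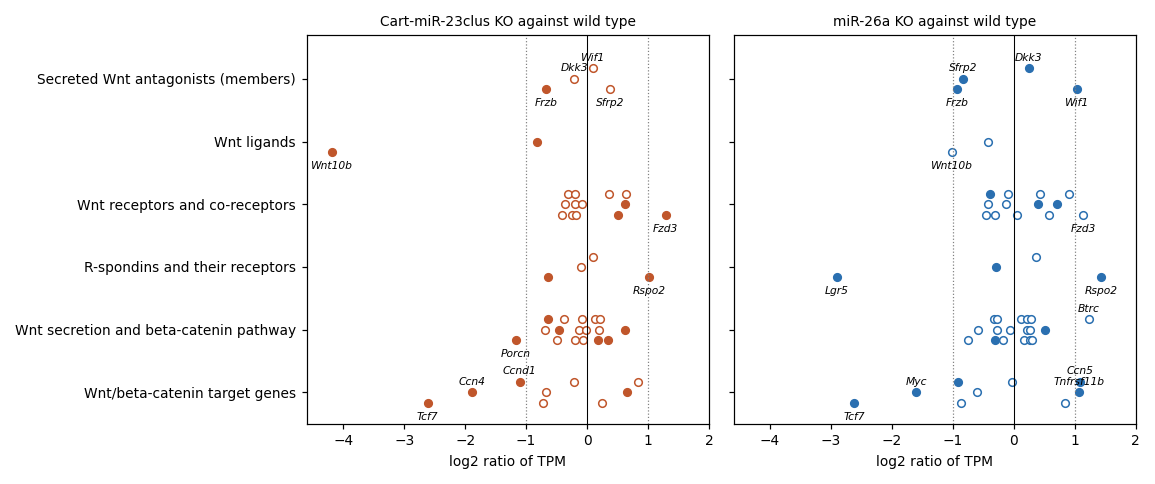
Log2 ratio of TPM (horizontal axes) of each gene with at least 20 reads in the 2 libraries together, by pathway list, in Cart-miR-23clus KO chondrocytes (left) and miR-26a KO chondrocytes (right) against wild type, with filled points where the 95% counting interval excludes 1, open points where it includes 1, and dotted lines at ratios of 0.5 and 2. The members and the genes past 2-fold are named. Wnt10b, Tcf7, Ccn4, Ccnd1 and Porcn lie below 0.5 in Cart-miR-23clus KO chondrocytes, and Tcf7, Lgr5 and Myc in miR-26a KO with an interval that excludes 1.

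The genes with the most similar pattern over the 4 libraries were sought for each compared member among 6821 genes with at least 100 reads in all, by the Euclidean distance between log2(TPM + 0.5) values centred on each gene's mean. The nearest to Wif1 were Pmepa1 (distance 0.0707), Dclk1 (0.0993) and Ccn5 (0.119). Ccn5 was at 60.1, 71.1, 128 and 135 TPM in wild-type chondrocytes, Cart-miR-23clus KO chondrocytes, miR-26a KO chondrocytes and the mimic-transfected library, with the step between the same pairs of libraries as Wif1. The nearest to Frzb were Srpx (0.107), Vps37c (0.120) and Cadm1 (0.142), and Srpx was at 33.6, 22.1, 17.8 and 21.4 TPM. The nearest to Dkk3 were Nsun2 (0.0249), Frrs1 (0.0266) and Ipo9 (0.0286), and to Sfrp2 they were Ldhb (0.159), Atp7a (0.160) and Snap29 (0.185).

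No member was among the 3 genes nearest to another. The closest pair of members was Wif1 and Dkk3, at 0.767, with 1042 of the genes nearer to Wif1 than Dkk3 was and 5844 nearer to Dkk3 than Wif1 was. Frzb and Sfrp2 were at 0.817, with 1255 genes nearer to Sfrp2 and 3501 nearer to Frzb. The distance from Frzb to Wif1 was 1.59, with 6618 of the genes nearer to Frzb than Wif1 was. With 4 libraries, such distances describe these samples and carry no test.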

How the data were processed

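RNA of cultured mouse chondrocytes was sequenced by the authors as QuantSeq 3′ mRNA libraries (500 ng RNA, 12 PCR cycles), with builds mm10 and GRCm38.p6 per the submitters' processing notes. The aligner, counter and annotation are not given in the sources used here. The authors deposited TPM for all 4 libraries and, for 3, an estimated count per gene, always a whole number of reads and not normalized. The reads of the mimic library were recovered from the steps of its TPM values (14429 of 14429 values whole within 0.01 reads, 588 genes not recovered). Genes left out of the TPM table held 0.480% to 0.633% of the reads. No column of another sample was present (0).

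The members and the gene lists were chosen with earlier results of these data known. Named genes are the 8 members, per pathway list and comparison up to 3 genes with the largest ratio in either direction among those with an interval that excludes 1, the leading marker and markers at 0, and the 3 nearest patterns, though the text leaves some of these out. Further values of Ctnnb1, Draxin, Notum, Axin2, Tnfrsf11b, Comp, Matn3, Col9a2, Spp1 and Runx2 were chosen after they were seen. So were those of Col10a1, Ctsk, Thbs4, Erg, Gdf5, Clic5 and Wnt5b, and of Wnt10b in the comparisons with miR-26a KO. UTRs of at least 50 bases came from GENCODE, and miRNAs from RefSeq. Some UTR matches are not reported here. Intervals and recovery were tested on simulated data. Alternatives were CPM, TMM and size factors for scale, other read filters, 0.1 or 1 TPM added, and 99% intervals. Scales came from edgeR 4.0.16 and DESeq2 1.42.0 in R 4.3.3, and the rest from scipy 1.17.1, pandas 2.3.3, numpy 2.4.6 and matplotlib 3.10.9 in Python 3.11.15.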

Additional observations from a re-analysis of the deposited data

How the results depend on the processing

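No paired analysis was possible because there was only 1 library of each kind, and no replicate could be left out. Depth limits the members with few reads: Sfrp1, Sfrp4, Sfrp5 and Dkk2 had at most 7 reads in a library. The number of members past 2-fold was 0 in Cart-miR-23clus KO against wild type, 1 in miR-26a KO against wild type, 0 in the mimic-transfected library against miR-26a KO and 1 in Cart-miR-23clus KO against miR-26a KO. Counting every gene with TPM above 0 in both libraries made these 1 (Sfrp5, 1 read against 5), 2 (adding Sfrp4), 0 and 2 (adding Sfrp4). With edgeR's TMM, miR-26a KO against wild type had 0, as Wif1 was at 1.99. The other alternatives left these counts as they were.

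Members with an interval that excluded 1 numbered 1, 4, 1 and 4 in the same order. In Cart-miR-23clus KO against wild type there were 2 (Frzb and Dkk3) with TMM, with DESeq2's size factors and with the interval scaled to the TPM ratio, an alternative chosen after seeing the data. In the mimic-transfected library against miR-26a KO there were 0 with TMM and 0 at 99%, and for miR-26a KO against wild type 3 at 99%, without Sfrp2. Over other scalings and amounts of TPM added, all 105 member ratios stayed within their intervals, and those of Frzb, Dkk3, Wif1 and Sfrp2 moved by a factor of at most 1.04. By CPM, 8 of 32 ranks of members by level moved, and Frzb then ranked second in miR-26a KO. Of 124 list medians, 32 moved by at least 0.1 on the log2 scale. The target median with a mean of at least 5 TPM was -0.21 for Cart-miR-23clus KO and -0.03 for miR-26a KO, both against wild type.

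All genes past 2-fold numbered 872, 704, 317 and 701 in the 4 comparisons. They numbered 245, 169, 27 and 162 when each library needed 20 reads, and 2489, 2205, 1700 and 2262 with TPM above 0 in both. With 1 TPM added the mimic comparison had 171.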
